A study of Mus musculus with 2 samples.

Results

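The growth hormone axis of liver was described through 9 genes, named by symbol in the deposited counts: the receptor gene Ghr, its kinase gene Jak2, the transcription factor genes Stat5a and Stat5b, the feedback genes Socs2 and Cish, the repressor gene Bcl6, and the secreted products Igf1 and Igfals. All 9 were found among the 22609 gene symbols, and all 9 were measured, meaning that they held at least 50 reads summed over both libraries. The study compared liver RNA of male C57BL/6 mice with a whole-body Lrg1 knockout with that of male wild-type C57BL/6 mice (C57BL/6J in the protocol), and there was 1 library of each. Lrg1 encodes a secreted leucine-rich glycoprotein. Animals of both genotypes ate a diet with 45% of calories from fat for 16 weeks, from the age of 8 weeks. Whether RNA of several mice was pooled, the hour of collection and any fast before it are not stated in the labels.

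Growth hormone from the pituitary binds its receptor on hepatocytes, where the receptor-bound kinase JAK2 phosphorylates STAT5. Phosphorylated STAT5 enters the nucleus and switches on genes for the circulating growth factor IGF1, for its carrier subunit (the acid-labile subunit, from Igfals), and for the inhibitors SOCS2 and CIS (from Cish), which damp the receptor's own signal. Male rodents release the hormone in pulses and females more continuously, and liver STAT5 activity and sex-biased liver genes follow that pattern. The repressor BCL6 binds DNA elements much like those of STAT5 and opposes it at part of its targets.

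The libraries were deep enough to count each axis gene, but without replicates they could not be tested. The library labelled Lrg1 knockout held 18738397 reads in genes and the wild-type library 23311906. Levels are given in CPM, reads scaled to library size by TMM, the trimmed mean of M-values; 1 read was worth 0.0519 CPM in the library labelled Lrg1 knockout and 0.0441 CPM in wild type. Lrg1 itself had 17572 reads in the library labelled Lrg1 knockout, against 26958 in wild type, or 911.2 against 1190 CPM. The label could therefore not be checked by its own gene, because the sources used here do not give the deleted part, and a count per gene holds no position along the transcript. All differences below compare these 2 libraries and not the genotypes, and all intervals are exact 95% intervals that cover counting error only. Of 12 hepatocyte markers 11 were found in the counts; all 11 were measured, and 0 were 2-fold apart.

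Relative to wild type, 2 of the 9 axis genes, Socs2 and Cish, were higher by 2-fold or more in the library labelled Lrg1 knockout, and 1, Bcl6, was lower by 2-fold or more. The receptor, the kinase and the IGF1 complex genes were close to wild type. Over all 11411 measured genes, 1.71% were higher by that much, 2.49% lower, and 4.2% either. At 3-fold, Socs2 and Cish were the axis genes past the threshold, where 0.456% of measured genes were higher and 0.92% lower. The median log2 ratio of the 9 genes was 0.19, against -0.01 for all measured genes. The axis genes were chosen with results of these data known, so their counts are a description.

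**Figure D1:**
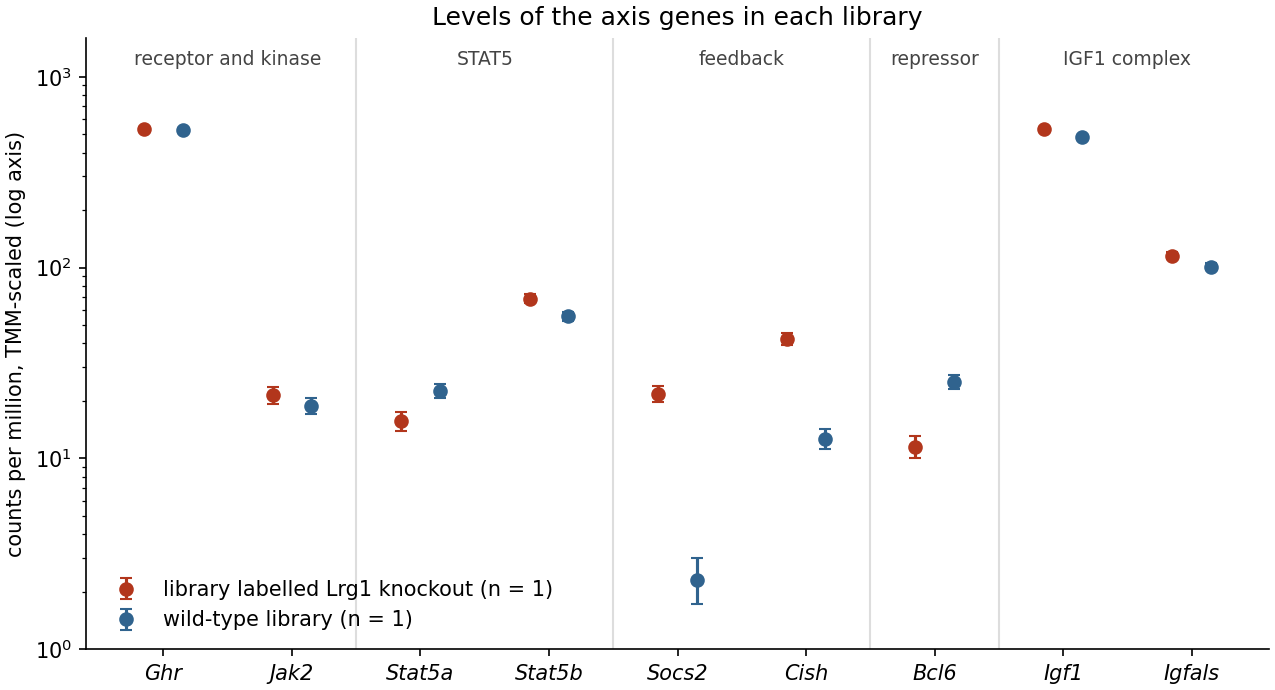
Level of each axis gene in both libraries (left of each pair, the library labelled Lrg1 knockout; right, wild type), in TMM-scaled CPM on a log axis, with exact 95% Poisson bars. Socs2 stood at 21.7 against 2.30 CPM and Cish at 42.3 against 12.6 CPM, whereas Ghr and Igf1 stood between 482.4 and 534.1 CPM in both libraries.

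STAT5 and BCL6 bind short palindromes, and the promoter sequences of the axis genes hold copies of the STAT5 core in some cases. RefSeq promoter entries (build GRCm38.p6, 250 bases before to 50 after each annotated start) matched 8 of the 9 genes, all but Socs2, in 14 windows. The motif TTCNNNGAA reads the same on both strands, and BCL6 elements overlap it in their letters. It was present in 5 of the 14 windows, belonging to 3 genes (Cish, Bcl6 and Igfals), against 8.30% of 32851 windows of the same length. Genes with several starts have more windows, and of all 27025 genes with an entry 9.55% held the motif in at least 1 window. The stretches with matches from Cish, Bcl6 and Igfals are shown because the first 2 genes stood 2-fold apart between the libraries and the last did not. No GENCODE M21 transcript of these genes begins exactly at the Cish start, the second Bcl6 start or the second Igfals start. The bases after the second Bcl6 start are in none of its transcripts. At the first Bcl6 start, where a transcript begins, the window held 1 match, against 3 at the second. The Cish stretch lies within an annotated Cish exon. Capitals mark the motif, and strands are those of the genes.

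Cish, chr9:107296654-107296683, plus strand, both matches just after the annotated start: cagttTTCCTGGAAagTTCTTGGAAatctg

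Bcl6, chr16:23981354-23981463, minus strand, before the second annotated start: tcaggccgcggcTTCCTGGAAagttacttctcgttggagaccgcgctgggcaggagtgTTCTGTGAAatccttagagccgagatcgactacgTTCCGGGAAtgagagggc

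Igfals, chr17:24878121-24878214, plus strand, before the second annotated start: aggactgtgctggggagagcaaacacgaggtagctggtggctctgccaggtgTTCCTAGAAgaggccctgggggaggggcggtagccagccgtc

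The 9-base word TTCCTGGAA stood in both the Cish and the Bcl6 stretch, and these genes differed in opposite directions. The word TTCTCAGAA was found once each in the window of the first Bcl6 start and of the first Igfals start. Windows of Ghr, Jak2, Stat5a, Stat5b and Igf1 held 0 matches, which says only that these letters are not in those 300 bases. A match is a description of letters, and the counts carry no measurement of binding.

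Receptor and kinase transcripts differed little between the libraries. Ghr, which encodes the growth hormone receptor, had 10266 reads in the library labelled Lrg1 knockout, against 11969 in wild type, or 532.4 (522.1 to 542.8) against 528.4 (518.9 to 537.9) CPM. The Ghr log2 ratio was 0.01 (-0.03 to 0.05), and the intervals of its levels overlapped. Jak2, the kinase bound to that receptor, had 412 against 425 reads, 21.4 (19.4 to 23.5) against 18.8 (17.0 to 20.6) CPM. Its log2 ratio of 0.19 (-0.01 to 0.39) had an interval that included no difference, and a ratio up to 1.31-fold higher lay inside it.

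The paired STAT5 genes differed in opposite directions. Stat5b, the form that carries most of the growth hormone signal in mouse liver, had 1323 reads in the library labelled Lrg1 knockout, against 1259 in wild type, or 68.6 (65.0 to 72.4) against 55.6 (52.6 to 58.7) CPM. Stat5a, the form best known from mammary gland, had 302 against 512 reads, or 15.7 (13.9 to 17.5) against 22.6 (20.7 to 24.6) CPM. For neither gene did the intervals of the 2 levels overlap. The log2 ratio was 0.30 (0.19 to 0.42) for Stat5b and -0.53 (-0.74 to -0.32) for Stat5a, both less than 2-fold. Within a library the 2 genes can be set against each other without any scaling: Stat5a made up 18.6% (16.7 to 20.6) of their summed reads in the library labelled Lrg1 knockout, against 28.9% (26.8 to 31.1) in wild type (exact Clopper-Pearson intervals). The ratio of Stat5a to Stat5b reads was thus 0.561 (0.476 to 0.662) of that in wild type.

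Reads of the STAT5 genes are partly interchangeable, which bears on these shares. In GENCODE M21 transcripts, 8.21% of the 50-base words of Stat5a also occur in Stat5b and 11.0% of those of Stat5b occur in Stat5a. Allowing 2 mismatches, the shares were 17.0% and 22.3%. Identical words would fall outside the unique alignments, so the counts rest on the remaining sequence. Stat5a and Stat3 share 72 bases of exon on opposite strands, which is 1.01% of the exon bases of Stat5a, and Stat3 had 2854 reads in the library labelled Lrg1 knockout, against 4012 in wild type.

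The feedback genes stood farthest from wild type. Socs2, which encodes a suppressor of cytokine signalling that limits body growth in mice, had 418 reads in the library labelled Lrg1 knockout, against 52 in wild type, or 21.7 (19.6 to 23.9) against 2.30 (1.71 to 3.01) CPM. It was 9.44-fold higher (7.07 to 12.9), a log2 ratio of 3.23, and ranked 6 of 11411 measured genes from the highest ratio. Cish, which encodes the related inhibitor CIS, had 816 against 286 reads, or 42.3 (39.5 to 45.3) against 12.6 (11.2 to 14.2) CPM. Cish was 3.35-fold higher (2.93 to 3.85), a log2 ratio of 1.74, at rank 43.

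The 2 feedback genes were not apart by the same amount. Socs2 had 0.512 reads per Cish read in the library labelled Lrg1 knockout, against 0.182 in wild type, a ratio 2.82 times as high (2.04 to 3.95) that no scaling can alter. Against Stat5b, Socs2 reads were 7.65 times (5.66 to 10.5) and Cish reads 2.72 times (2.32 to 3.18) as frequent as in wild type. Part of the Socs2 sequence is not unique: 4.58% of its 50-base words occur in other GENCODE genes, mostly in Gm9847. For Cish the share was 9.35%, mostly in the overlapping antisense genes Gm17041 and Gm17040, which cover 7.46% and 4.07% of its exon bases. These GENCODE genes are not among the counted symbols, and the sources used here give no strand setting for the counting, so antisense reads cannot be told apart from those of Cish.

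**Figure D2:**
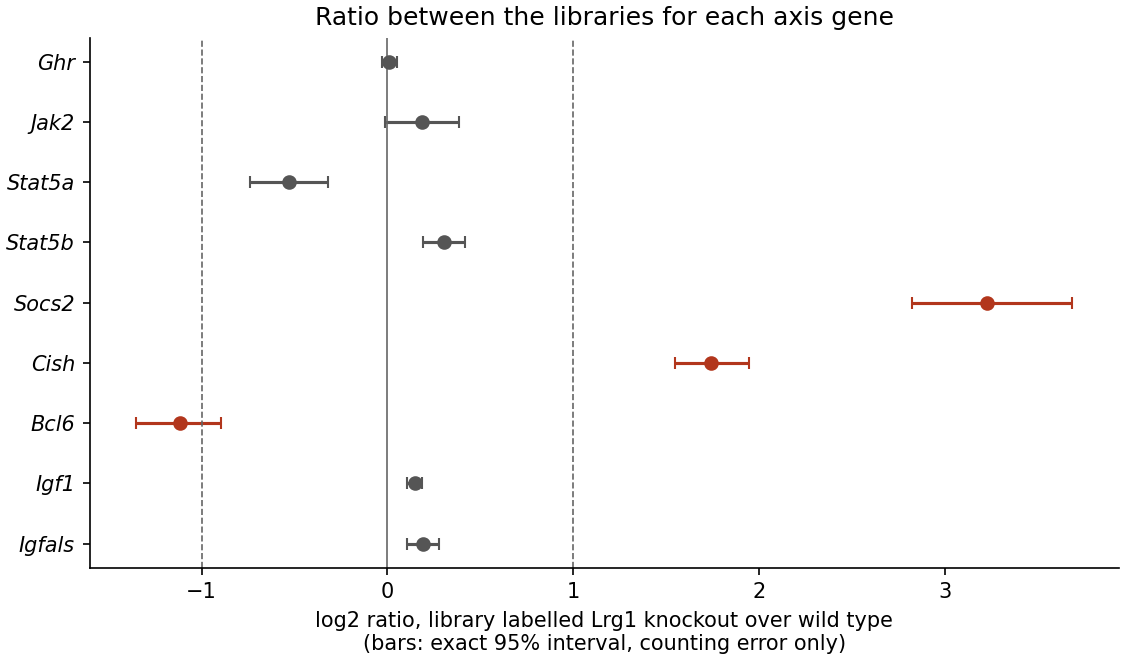
Log2 ratio of the library labelled Lrg1 knockout over wild type for each axis gene (x axis), with exact 95% intervals for counting error; genes at least 2-fold apart are red and dashed lines mark 2-fold. Socs2 (3.23) and Cish (1.74) lie right of the upper line, Bcl6 (-1.12) lies left of the lower line with an interval that crosses it, and the other 6 genes lie between the lines.

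Bcl6 was lower. This repressor, known in male mouse liver for holding down female-biased genes, had 222 reads in the library labelled Lrg1 knockout, against 567 in wild type, or 11.5 (10.05 to 13.1) against 25.03 (23.0 to 27.2) CPM. The fold was 0.460 (0.392 to 0.538), a log2 ratio of -1.12 (-1.35 to -0.89), so the interval also held values under 2-fold, and Bcl6 stood 230th from the lowest ratio. Relative to the feedback genes within each library, Bcl6 had 0.531 reads per Socs2 read in the library labelled Lrg1 knockout, against 10.9 in wild type. Per Cish read it had 0.272 and 1.98. None of its 50-base words occurred in another GENCODE gene.

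Products of the axis were nearly level. Igf1, the main growth factor that liver sends into blood, had 10300 reads in the library labelled Lrg1 knockout, against 10928 in wild type, or 534.1 (523.9 to 544.6) against 482.4 (473.4 to 491.5) CPM. Igfals, whose product holds IGF1 and its binding protein together in serum, had 2219 against 2284 reads, or 115.1 (110.3 to 120.0) against 100.8 (96.7 to 105.0) CPM. Their log2 ratios were 0.15 (0.11 to 0.19) and 0.19 (0.11 to 0.28), with intervals of the levels that did not overlap; scaling by total count moved them to 0.23 and 0.27. The ratio of Igf1 to Igfals reads was 4.64 in the library labelled Lrg1 knockout, against 4.78 in wild type, 0.970 (0.909 to 1.04) of it, an interval that included no difference. Igf1 and Igfals are textbook STAT5 targets like Socs2 and Cish, but Igf1 and Igfals were 1.11-fold and 1.14-fold higher where Cish was 3.35-fold and Socs2 9.44-fold higher.

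In order of log2 ratio the genes ran Socs2, Cish, Stat5b, Igfals, Jak2, Igf1, Ghr, Stat5a and Bcl6. The neighbours Stat5b, Igfals, Jak2 and Igf1 had overlapping intervals along that order, and the other neighbours did not overlap. The genes with at least 300 reads nearest to Socs2 in log2 ratio, of 8458 compared over these 2 libraries, were Gadd45g (3.53), Serpina4-ps1 (2.85) and Hhex (2.77). With 2 libraries such a likeness is only a similar ratio.

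**Figure D3:**
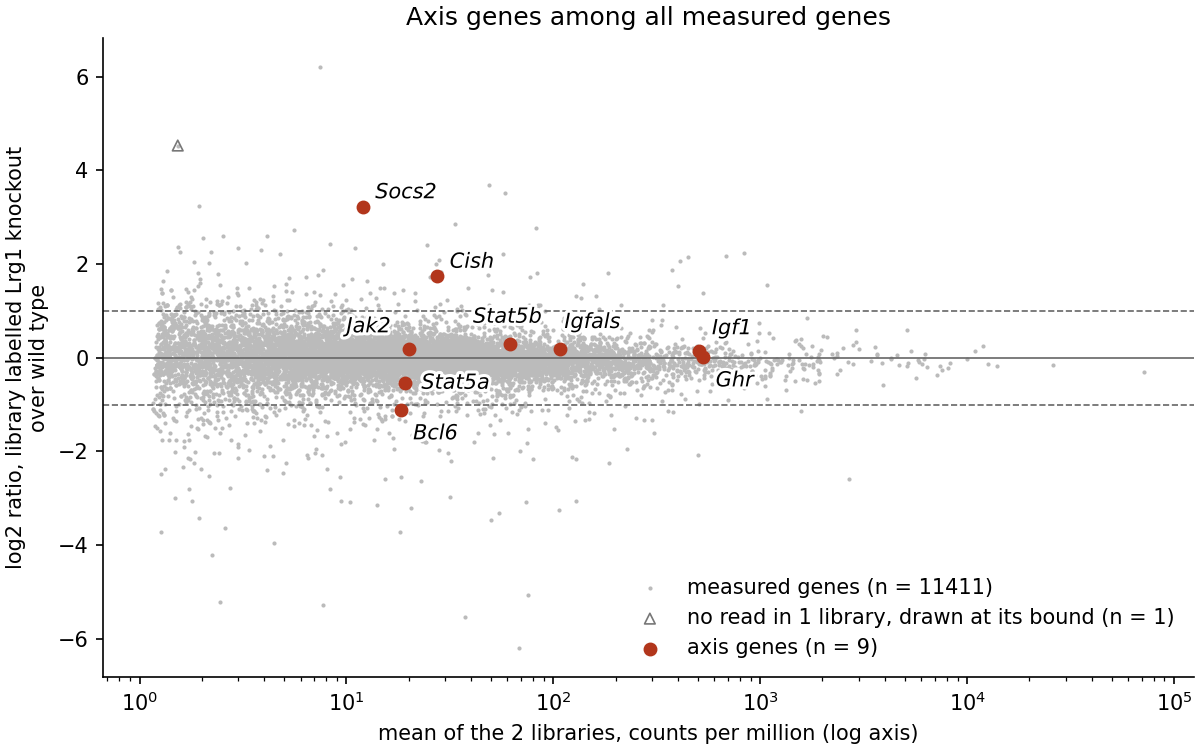
Log2 ratio of the library labelled Lrg1 knockout over wild type (y axis) against the mean level of each of 11411 measured genes in CPM (log x axis), with the 9 axis genes in red and dashed lines at 2-fold; the single gene without a wild-type read, Moxd1, is drawn as a triangle at its bound. Socs2 and Cish lie above the cloud of genes of like abundance, and Ghr and Igf1 lie inside it.

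Levels can be compared between genes per length of transcript. Per kilobase of annotated exon (GENCODE M21), Ghr stood at 58.8 CPM per kilobase in the library labelled Lrg1 knockout, against 58.4 in wild type, Igf1 at 53.9 and 48.7, and Igfals at 36.3 and 31.8. Stat5b followed at 12.4 and 10.03, above Stat5a at 2.20 and 3.17. Socs2 stood at 2.27 and 0.241 CPM per kilobase, Cish at 6.59 and 1.97, Jak2 at 4.25 and 3.73, and Bcl6 at 1.72 and 3.74. Socs2 was thus the lowest of the 9 genes in wild type, and Bcl6 the lowest in the library labelled Lrg1 knockout. With the longest annotated transcript as length, Ghr, Igf1, Igfals and Stat5b kept places 1 to 4 in both libraries, and Socs2 and Bcl6 kept the lowest places.

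Other components of the receptor's signal were 2-fold apart about as rarely as all measured genes, of which 4.2% were. Of 35 such genes, adaptors, phosphatases and kinases beside JAK2, all 35 were measured, 1 was 2-fold higher and 0 were 2-fold lower, and the median log2 ratio was -0.03, which turned to 0.05 under scaling by total count. The higher gene was Irs2, an insulin receptor substrate that JAK2 can also phosphorylate, with 472 reads in the library labelled Lrg1 knockout, against 214 in wild type (1.37). Irs1 was at 0.73, the adaptor Grb10 at 0.55 on 90 against 72 reads, and Ptpn6, a phosphatase that acts on JAK2, at -0.56. In the rest of the SOCS family 5 of 6 genes were measured and 0 were 2-fold apart in either direction, with Socs6 at 0.73, Socs4 at 0.55, Socs7 at 0.30 and Socs5 at 0.19; the interval of Socs5 reached below 0. Socs1 held 10 and 9 reads, too few to be measured. The interval of the Socs2 log2 ratio (2.82 to 3.68) did not overlap that of its highest measured relative outside the axis, Socs6 (0.42 to 1.05).

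Among 13 other IGF genes 9 were measured, 2 were 2-fold higher and 1 was 2-fold lower (median -0.15). Of all measured genes, 4.2% were 2-fold apart in either direction. Igfbp1, a binding protein that fasting and low insulin raise, had 2507 reads in the library labelled Lrg1 knockout, against 846 in wild type (1.80), and Igfbp2 had 14770 against 6639 (1.39). Igfbp5 was at -0.87 and Igfbp6 at -1.61 on 23 against 84 reads. Of 15 other receptors that signal through JAK kinases and STAT factors, 13 were measured, 0 were 2-fold higher and 1 was 2-fold lower, the interleukin 6 receptor Il6ra at -1.23; the median was -0.07, and 0.01 under scaling by total count. Lifr was at 0.66, Csf2rb at 0.56 and the leptin receptor gene Lepr at 0.56.

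Partners of STAT5 and BCL6 on DNA were 2-fold apart about as often as all measured genes, of which 4.2% were. Of 9 co-repressors and female-type repressors 8 were measured and 0 were 2-fold apart, with a median of -0.09. Trim24, a nuclear co-regulator, was at -0.62, the co-repressor Sin3a at -0.26, Hdac3 at -0.20, and Hdac1 at 0.17, whose interval reached below 0. Cux2, the female-specific repressor of mouse liver, held 5 reads in the library labelled Lrg1 knockout, against 7 in wild type, and was not measured. Of 12 other hepatic transcription factors, 0 were 2-fold higher and 1 was 2-fold lower; the median was -0.06 and turned to 0.02 under scaling by total count. Onecut1 (HNF6), a factor that growth hormone induces in liver, had 440 against 261 reads (0.98, just under 2-fold), Foxa1 was at 0.75 and Cebpb at -0.83.

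Genes downstream of STAT5 differed by class. STAT5 targets known from blood and mammary cells went both ways: of 10, 7 were measured, 1 was 2-fold higher and 1 was 2-fold lower (median -0.11). Over all measured genes, 4.2% were 2-fold apart in either direction. The growth regulator Myc was at 1.05 and Ccnd2 at 0.62, while the kinase gene Pim1 was at -1.17 on 280 against 742 reads and the cyclin gene Ccnd1 at -0.97. Neither milk protein gene, Csn2 nor Wap, had a read in either library.

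Sex-biased liver genes, which depend on growth hormone pulses and STAT5B in mice, held 2-fold differences in opposite directions, beside genes of both classes nearer to wild type. Over all measured genes, 1.71% were 2-fold higher in the library labelled Lrg1 knockout and 2.49% were 2-fold lower. Of 30 male-biased genes 29 were measured, 12 were 2-fold higher in that library and 0 were 2-fold lower (median 0.66). Hsd3b5, a steroid dehydrogenase, had 1750 against 158 reads (3.70), Ugt2b38 137 against 26 (2.61) and Mup1 354 against 81 (2.35). Moxd1 had 59 reads against 0, at least 23.1-fold higher if wild type is set to a floor of 3 counts. With Moxd1 at that bound the median stayed 0.66. Moxd1 and Ugt2b38 passed the read minimum through the library labelled Lrg1 knockout alone. With a minimum of 200 reads, which leaves both out, 10 male-biased genes were 2-fold higher and the median was 0.63. Of all 9343 genes at that minimum, 101 were 2-fold higher and 166 were 2-fold lower. The 2 measured male-biased genes below 0 were Serpina12 at -0.07 and Omd at -0.29, with intervals that included 0. Of 29 female-biased genes 16 were measured, 0 were 2-fold higher and 8 were 2-fold lower (median -1.37). Cyp2c69 had 10 against 190 reads (-3.95), Cyp2a4 7 against 109 (-3.64), Cyp2b13 6 against 81 (-3.42) and Cyp2b9 387 against 4348 (-3.26). The 4 measured female-biased genes above 0 were less than 2-fold apart, Rtn4rl1 at 0.43, Acot3 at 0.21, Cyp4a14 at 0.13 and Prlr, the prolactin receptor gene, at 0.13. The other 13 listed female-biased genes had too few reads to be measured. Some of the 16, Cyp2c69, Cyp2a4 and Cyp2b13 among them, passed the minimum through wild type alone. The count and median of the 16 therefore do not describe the whole list. With a minimum of 200 reads, 5 female-biased genes were 2-fold lower and the median was -0.71. Members of the Mup, Cyp2 and Ugt2b families are near-identical copies and uncertain one by one.

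Lipid genes that are known to be higher in mouse liver lacking growth hormone signalling included several far below wild type. Of 15, all measured, 7 were 2-fold lower and 0 were 2-fold higher (median -0.70), against 2.49% lower and 1.71% higher over all measured genes. The 3 lipid genes above 0 were Lpl at 0.41, G0s2 at 0.23 and Plin2 at 0.08. The droplet protein gene Cidea had 30 reads in the library labelled Lrg1 knockout, against 1667 in wild type (-5.54), the desaturase gene Scd1 was at -2.60, Mogat1, which makes diacylglycerol, at -1.79 and Fasn, the fatty acid synthase, at -1.53.

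**Figure D4:**
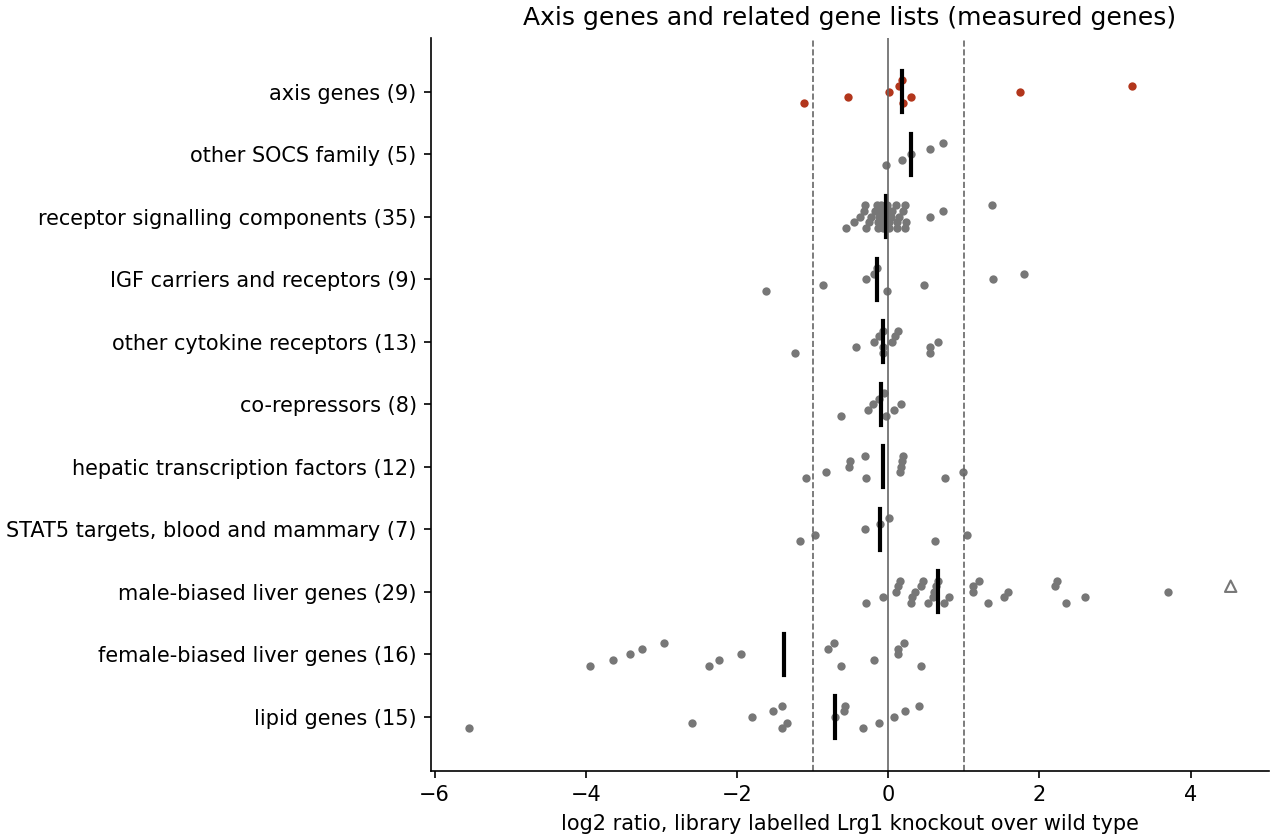
Log2 ratio of the library labelled Lrg1 knockout over wild type (x axis) for each measured gene of the axis (red) and of 10 related lists (grey), with the number measured in brackets, a black bar at each median and dashed lines at 2-fold; the triangle is Moxd1 at its bound. The axis genes spread from -1.12 to 3.23, the receptor signalling components cluster at 0, and the 2-fold different genes of the male-biased and female-biased lists lie on opposite sides, while both lists hold genes around 0.

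Some other gene groups also differed between these libraries, and whether they bear on the axis genes was not tested. Over all measured genes, 1.71% were 2-fold higher and 2.49% were 2-fold lower. Of 19 clock genes, all measured, 2 were 2-fold higher and 9 were 2-fold lower. Their summed level was 589.8 CPM in the library labelled Lrg1 knockout and 1063 CPM in wild type. That sum joins genes that differed in opposite directions: 6 were above 0 and 13 below, from Npas2 at 2.21 to Ciart (counted as Gm129) at -5.28. Sinusoidal endothelial markers summed to 422.6 against 293.7 CPM, with 2 of 12 measured markers at least 2-fold higher. Among these markers 10 were above 0, while Lyve1 was at -0.47 and Gpr182 at -0.02. Kupffer cell and macrophage markers summed to 424.1 against 563.5 CPM, with 2 of 12 at least 2-fold lower. Of the 12, 11 were below 0, and Clec4f was at 0.15. Immune cells also express some axis genes, Bcl6 and Stat5a among them, and bulk counts do not assign their reads to a cell type. Stellate cell markers summed to 563.2 against 557.5 CPM, mostly from Dcn and Ecm1, with 1 of 10, Col1a1 (-1.07), at least 2-fold lower. Cholangiocyte markers summed to 41.2 against 42.8. Neutrophil markers summed to 7.73 against 6.84 CPM, with Mpo at 0 in the library labelled Lrg1 knockout. T, NK and B cell markers summed to 7.67 against 5.61 CPM, but only 2 of 12 were measured. Those 2, Cd4 (-0.17) and Cd79b (-0.16), were below 0, so the sum does not show a higher level of these cells. Adipocyte markers summed to 22.3 against 63.8 CPM, but only 2 of 6 were measured, Cfd (-2.54) and Lipe (-0.95). Lep, Plin1 and Retn were at 0 in both libraries, so the sum rests mostly on Cfd and Lipe and does not show a lower level of these cells. Muscle markers summed to 2.02 against 1.59 CPM with 0 of 7 measured, and Ckm was at 0 in the library labelled Lrg1 knockout. Of the erythroid markers only Alas2 was measured, and the globin genes were at 0 in both libraries. Alignments that were not unique lie outside these counts, so a 0 there need not mean that globin RNA was absent. In bulk liver, fewer cells of a type and less RNA per cell cannot be told apart.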

How the data were processed

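Each library has 1 file of raw, whole-number read counts by gene symbol, which the authors deposited without normalization. Per the labels' protocols, about 500 ng of total RNA per library was enriched for poly(A) RNA and prepared with a stranded kit, and single ends of 50 bases were read; per the submitters' processing notes, bcl2fastq, TopHat2, HTSeq and build mm9 were used. The sources used here give no versions, annotation or strand setting. Lines that name no gene were left out: reads outside genes were 14.4% of unique alignments in the knockout-labelled and 14.01% in the wild-type library, and ambiguous reads 0.234% and 0.231%.

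Counts were scaled by TMM in edgeR 4.0.16 (R 4.3.3; factors 1.03 and 0.972), and log2 ratios (knockout-labelled over wild type) used a prior count of 0.5. Measured genes held at least 50 reads over both libraries. Ratios have exact Clopper-Pearson and levels exact Poisson 95% intervals; reads are not independent molecules, so both cover counting error only. Differences were called at 2-fold, and with 1 library per group no test was possible. Only the ratio and interval steps were run on simulated counts, with library totals in place of TMM. Those counts held Poisson error and no variation between animals. Other steps ran in Python 3.11.15 (numpy 2.4.6, pandas 2.3.3, scipy 1.17.1; figures in matplotlib 3.10.9).

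The axis genes and lists were chosen with earlier results of these data known, so no pattern here is independent support. Named genes were the 9 axis genes, Lrg1, the 4 measured genes farthest from 0 in each related list, and the 3 nearest to Socs2 from 300 reads. Stat3, Socs1, Cux2, Csn2, Wap and individual cell-type markers were named outside that rule, after their values were seen. So were 3 lipid genes and 4 female-biased genes above 0, 2 male-biased genes below 0 and the named clock genes. The values of 1 gene that the rule names, among the hepatic transcription factors, are not reported here. Of 284 list symbols 282 were found, 4 by an older symbol. GENCODE M21 and RefSeq on GRCm38 gave lengths, shared words and promoters; the counts use mm9, so the printed promoter coordinates are those of RefSeq and not of the counts. Alternatives were DESeq2 1.42.0 size factors, total-count scaling with and without the 20 most abundant genes, thinning, a prior count of 2, other read minimums, thresholds of 1.5-fold and 3-fold, list means and longest-transcript lengths.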

Additional observations from a re-analysis of the deposited data

Results flagged for a closer look

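Alignments that were not unique lie outside the counts per gene, and no comparison uses them. They were a sizeable signal: 58.0% of the lines counted for the library labelled Lrg1 knockout, against 50.3% for wild type. Which of the axis genes they touch is not analysed here.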

How the results depend on the processing

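Socs2 and Cish stayed at least 2-fold higher and Bcl6 at least 2-fold lower under each alternative scaling, thinning, prior count and read minimum, and 0 of the 9 axis genes changed sign. The log2 ratio ranged from 3.15 to 3.31 for Socs2, from 1.74 to 1.83 for Cish and from -1.12 to -1.04 for Bcl6; those of Ghr and Igf1 moved beyond their counting intervals under total-count scaling, to 0.09 and 0.23. At 3-fold 2 axis genes were higher and 0 lower, since Bcl6 is under 3-fold. Over the other lists, 16 genes were higher and 19 lower at 2-fold, 28 and 27 at 1.5-fold, and 7 and 12 at 3-fold, by construction of the threshold. Of all 11411 measured genes, 195 were higher and 284 lower at 2-fold, 672 and 788 at 1.5-fold, and 52 and 105 at 3-fold. The female-biased median ranged from -2.24 without a minimum to -0.71 from 200 reads, where fewer genes are tested. In these settings 15 and 5 of its genes were 2-fold lower, against 1379 of 15722 and 166 of 9343 among all genes. From 200 reads the median of hepatic transcription factors was 0.16, and the mean of the other IGF genes was 0.06 against a median of -0.15. Counts of genes in single lists moved by over 1.5 times in 27 of 200 cases. Total-count scaling moved the median of all genes to 0.07. No paired analysis was possible because each group has 1 library, and none could be left out. Depth limits Socs2 most, with 52 wild-type reads.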
